A study of Dorcoceras hygrometricum with 3 samples.

Results

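The regions described here are stretches of leaf DNA whose methylation level differed between the hydrated library and the library at 70% relative water content (RWC), and which overlapped no region of the corresponding table for 10% RWC. The plant is Boea hygrometrica, filed in the labels under the name Dorcoceras hygrometricum, a resurrection plant whose leaves dry out and recover on rewatering. Of the 2690 regions listed for 70% RWC, 1979 (73.6%) shared no base with any of the 3093 regions listed for 10% RWC, and these 1979 were assigned to 2322 of the 3177 genes of the 70% RWC table. The other 711 regions (26.4%) overlapped a 10% RWC region and serve below for comparison.

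Plants grew in pots. Leaf DNA was taken from hydrated plants, from plants dehydrated to 70% RWC and from plants desiccated to 10% RWC, and each condition gave 1 bisulfite library. No genotype, age or number of pooled plants is given in the sources used here. Every difference thus sets 1 library against 1 other, without a replicate or a p-value, and drying cannot be told apart from differences among plants or preparations. The files list a methylation level per region, a fraction from 0 to 1, without read counts or coverage, so the depth behind a level is unknown. A region missing from the 10% RWC table was not shown to be unchanged at 10% RWC, because levels at 10% RWC are given for regions of that table only. Intervals on shares are 95% intervals for counting only, with regions or genes treated as independent, which neighbouring regions and genes that share a region are not.

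In plants, cytosines are methylated in CG, CHG and CHH sequence contexts by separate enzymes, and small RNAs guide part of this methylation. Methylation near the start of a gene often goes with silencing, whereas methylation inside genes is common in genes that are steadily transcribed. The deposited level does not say which contexts it covers. Leaves at 70% RWC have lost some of their water, a stage at which many plants raise abscisic acid, close stomata and adjust growth. The gene descriptions used below are those of the KEGG and Gene Ontology (GO) columns of the deposited table, which name the best-matching gene of other species. Gene identifiers are given without their shared ending V1.1.

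Most of the regions listed at 70% RWC only had the higher level in the dehydrated leaf. Of the 1979 regions, 1383 were higher at 70% RWC and 596 lower, a share of 69.9% higher (exact binomial interval 67.8% to 71.9%). Over all regions of the 70% RWC table, 70.4% were higher. The 711 overlapping regions gave 71.7% (68.3% to 75%), so the regions listed at 70% RWC only differed from them by -1.85 percentage points, with a Newcombe interval from -5.64 to 2.11 that includes 0. When a reciprocal overlap of 50% was needed to remove a region, this difference was -4.40 points and its interval, from -8.36 to -0.199, excluded 0.

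Among regions higher at 70% RWC, the median level was 0.14 in the hydrated library and 0.36 in the dehydrated one, with a median difference of 0.22 and quartiles of 0.16 and 0.29. Among regions lower at 70% RWC, the corresponding levels were 0.345 and 0.12, and the differences centred on -0.21 with quartiles of -0.31 and -0.14. The overlapping regions had closely similar medians, with a difference of 0.22 for higher and -0.23 for lower regions. The selection behind the table bounds these values, since the higher of the 2 levels was never below 0.1, the ratio of levels never below 1.92 and the smallest absolute difference 0.06. A level of exactly 0 was listed in the hydrated library for 79 regions and at 70% RWC for 39, while a level of 1 was listed for 5 and 14 regions.

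**Figure D1:**
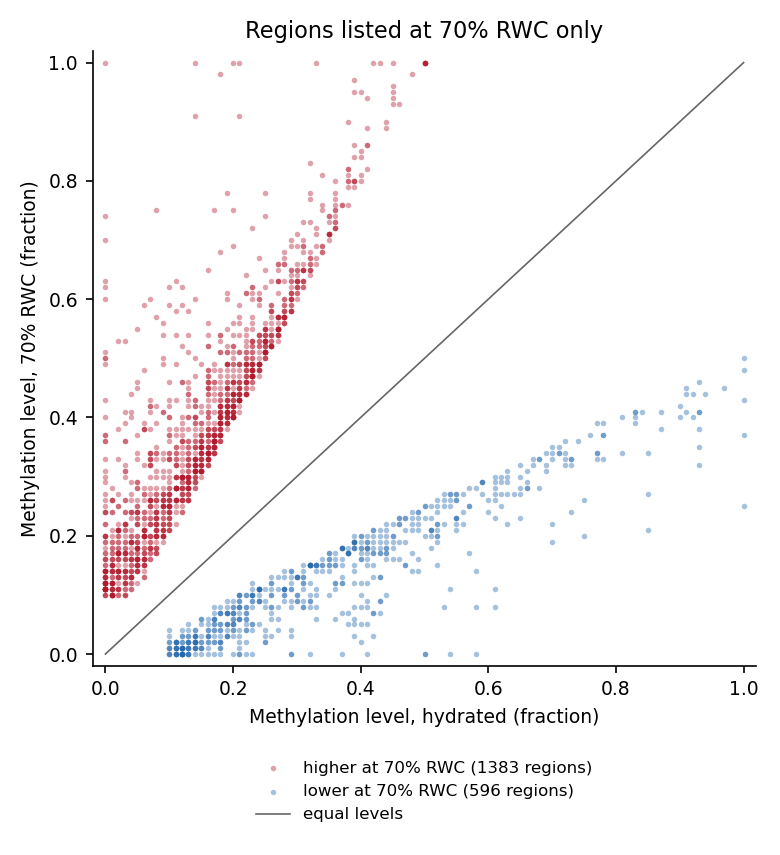
Methylation level of each of the 1979 regions listed at 70% RWC only, as a fraction in the hydrated library (horizontal axis) and at 70% RWC (vertical axis); each point is 1 region and the line marks equal levels. The 1383 points above the line are higher at 70% RWC and the 596 below it lower, and the empty wedge around the line follows from the selection of regions before deposit.

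A difference of 0.3 or more was found in 345 of these regions upward, against 17.4% upward over all regions of the table, and in 168 downward, against 8.55% downward over all regions. The largest differences lay at genes without any description. A region downstream of Bhs3890_002 (scaffold3890, positions 25397 to 25836) was listed at 0 in the hydrated library and at 1 at 70% RWC. A region upstream of Bhs12746_001 was listed at 0.14 and 1, and regions within Bhs12233_001 and Bhs2051_001 at 0.20 and 1, and 0.18 and 0.98. The region upstream of Bhs2664_002 was listed at 0.21 and 1. In the other direction, a region within Bhs1761_010 (scaffold1761, 283410 to 283612) was listed at 1 in the hydrated library and 0.25 at 70% RWC, and one within Bhs1717_001 at 1 and 0.37. Upstream of Bhs22_066, which has only GO terms, the levels were 0.85 and 0.21. These 8 regions were between 203 and 538 bp long, and without coverage a level of 0 or 1 cannot be set apart from one read from few cytosine calls.

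Among genes with a description, the largest difference upward was in the body of Bhs6817_001, an antenna gene of photosystem I (light-harvesting complex I). Its region (scaffold6817, 9554 to 9992) had a level of 0.21 in the hydrated library and 0.91 at 70% RWC. The body of Bhs5545_005, described as a riboflavin synthesis deaminase and tRNA pseudouridine synthase, was listed at 0 and 0.63. The region upstream of Bhs2524_006, a xyloglucan:xyloglucosyl transferase that cuts and rejoins wall xyloglucan, was listed at 0 and 0.60 (scaffold2524, 61301 to 61510, 516 bp from the gene). The others of the 12 largest were spread over unlike roles. They included a cleavage and polyadenylation factor subunit (Bhs862_041, 0.19 and 0.78), a Xaa-Pro aminopeptidase (Bhs725_010, 0.39 and 0.95), the flowering regulator CONSTANS (Bhs106_037, upstream, 0.41 and 0.94) and periodic tryptophan protein 2 (Bhs152_011, 0.25 and 0.78). The list went on with UTP-glucose-1-phosphate uridylyltransferase, which makes UDP-glucose (Bhs1687_001, downstream, 0.07 and 0.60), a protein kinase (Bhs18_096, downstream, 0.06 and 0.59) and the ribosome rescue factor pelota (Bhs183_008, 0.32 and 0.83). The ubiquitin ligase synoviolin (Bhs109_014, 0.45 and 0.95) and a DnaJ chaperone (Bhs422_001, upstream, 0.05 and 0.55) completed the 12.

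The 12 largest differences downward were likewise spread over unlike roles. A region upstream of Bhs828_019, described as the splicing helicase DHX16, had a level of 0.75 in the hydrated library and 0.20 at 70% RWC (scaffold828, 122052 to 122420). The same region was also assigned to its neighbour Bhs828_020. Downstream of Bhs2492_008, ribosomal protein L9e, the levels were 0.54 and 0, and upstream of Bhs13771_003, ribosomal protein L24e, 0.93 and 0.46. The body of Bhs710_026, the mRNA export helicase UAP56/SUB2, was listed at 0.93 and 0.41, and a region upstream of the integrator subunit Bhs3415_002 at 0.90 and 0.42. By their descriptions, other members of the 12 belonged to hormone perception, photosynthesis and RNA silencing. These were a brassinosteroid receptor BRI1 (Bhs20_016, 0.94 and 0.44), ferredoxin, the electron carrier after photosystem I (Bhs222_026, upstream, 0.50 and 0), and geranylgeranyl reductase, which supplies the phytol tail of chlorophyll (Bhs4002_002, upstream, 0.85 and 0.34). A region upstream of a Dicer endoribonuclease, which cuts small RNAs from double-stranded RNA, was listed at 0.53 and 0.08 (Bhs18_073, scaffold18, 641273 to 641746). The remaining ones were a retinoblastoma-like cell cycle regulator (Bhs5545_013, 0.87 and 0.38), a kinase (Bhs2207_015, upstream, 0.91 and 0.44) and a serpin protease inhibitor (Bhs3702_001, 0.87 and 0.41).

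By gene part, 1030 of the 2322 genes (44.4%) had their region in the gene body, 607 (26.1%) upstream and 685 (29.5%) downstream. Of the 2322 genes 70.2% were higher at 70% RWC, against 70.6% over all genes of the 70% RWC table. The share higher was 72.0% upstream (437 genes), 69.5% in bodies (716 genes) and 69.5% downstream (476 genes). Bodies and flanks differed by -1.15 points, with an interval from -4.91 to 2.58, while among genes of overlapping regions the same difference was 5.82 points (-0.261 to 11.7). Neither interval excludes 0.

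Large differences had the same spread over gene parts as in the whole 70% RWC table. An absolute difference of 0.3 or more was listed for 34.8% of upstream genes, 24.5% of downstream genes and 20.1% of body genes. Over all genes of the 70% RWC table these shares were 34.5%, 24.4% and 19.97%, and over genes of overlapping regions 33.8%, 24.1% and 19.6%. Among the genes listed at 70% RWC only, upstream and body genes differed by 14.7 points (10.2 to 19.2), and downstream and body genes by 4.43 points (0.430 to 8.52). The median of higher regions was 0.24 upstream, 0.20 in bodies and 0.22 downstream, and that of lower regions was -0.27, -0.19 and -0.21. At differences of 0.3 or more, 147 of 207 body genes (71.0%) and 243 of 379 flank genes (64.1%) were higher at 70% RWC, a difference of 6.90 points with an interval from -1.12 to 14.5. Body regions covered a median of 9.66% of their gene, and 175 of them reached beyond its ends.

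**Figure D2:**
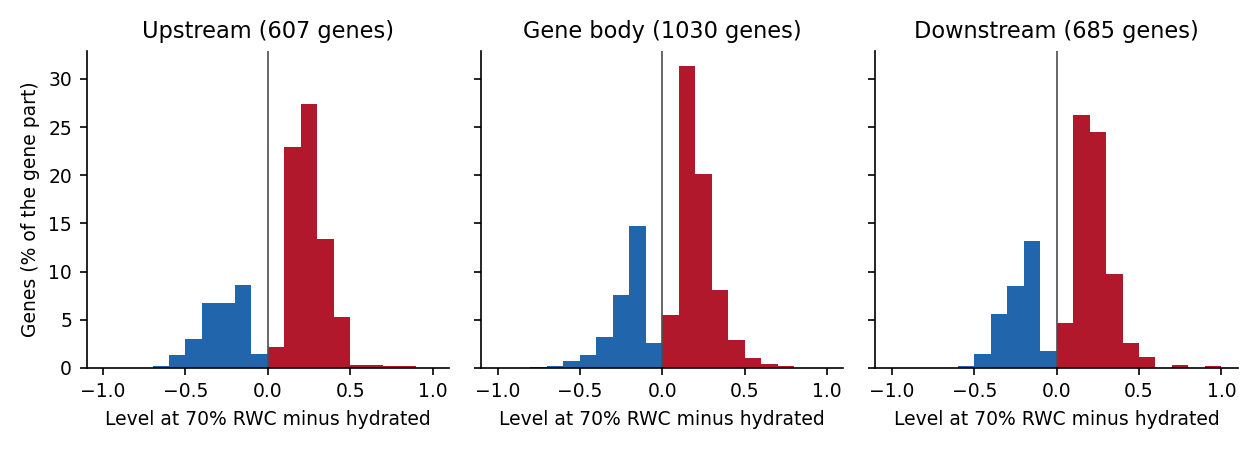
Difference of methylation levels (70% RWC minus hydrated) of the 2322 genes by part of the gene; bars are the percentage of that part's genes in steps of 0.1, red above 0 and blue below. The upstream panel has the widest bars beyond 0.3 on both sides (34.8% of its genes), and the body panel the fewest (20.1%).

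Upstream regions were also split by their distance from the gene. Of the 39 upstream regions that touched their gene, 33 (84.6%, interval 69.5% to 94.1%) were higher, and of the 145 lying 1 to 500 bp away, 111 (76.6%, 68.8% to 83.2%) were. Beyond 500 bp the share was 70.4%, 68.3% and 68.8% in successive steps of 500 bp. The intervals overlap, so the order was not resolved by these counts. Downstream there was no such order, with shares of 71.6%, 70.2%, 68.5%, 75.7% and 59.8% over the same steps, and the lowest value came from the 107 regions farthest out.

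Regions varied in length around a median of 318 bp (quartiles 248 and 431, range 201 to 1702), while overlapping regions had a median of 392 bp. A longer region has more bases that can overlap another, so length is not independent of the rule. Of regions of 300 bp or more 72.3% were higher at 70% RWC, against 66.9% of shorter ones, a difference of 5.39 points (1.32 to 9.49). All 7 regions of 1000 bp or more were higher, beside 70.4% of all regions of the 70% RWC table. Overlapping regions of such length went both ways. Examples are 0.78 and 0.36 over 1641 bp (Bhs2646_002) and 0.23 and 0.48 over 1583 bp (Bhs1119_022). The longest of the 7, 1702 bp within Bhs11_028, a centromeric protein E, had levels of 0.02 and 0.14. The one with the largest difference lay upstream of Bhs451_005, the RNA polymerase I initiation factor RRN3 (1112 bp, 0.31 and 0.65). A MAP kinase kinase (Bhs6_148, 0.07 and 0.25), an aminopeptidase N (Bhs2050_011, 0.09 and 0.20), a pumilio family protein (Bhs334_083, upstream, 0 and 0.12), a galacturonidase (Bhs9876_001, upstream, 0.05 and 0.16) and the undescribed Bhs828_022 (0.14 and 0.33) had the others.

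The share also varied with the level of the region. Where the higher of the 2 levels was below 0.2, 240 of 380 regions (63.2%) were higher at 70% RWC, and the share was 69.1% from 0.2 to 0.3, 73.9% from 0.3 to 0.5 and 69.8% at 0.5 or above. Between the first and the 0.3 to 0.5 step, the lowest and the highest of these shares, the difference was 10.8 points (5.0 to 16.6). The interval makes no allowance for the choice of this pair. Overlapping regions gave 70.9%, 76.7%, 76.2% and 62.1% in the same steps.

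**Figure D3:**
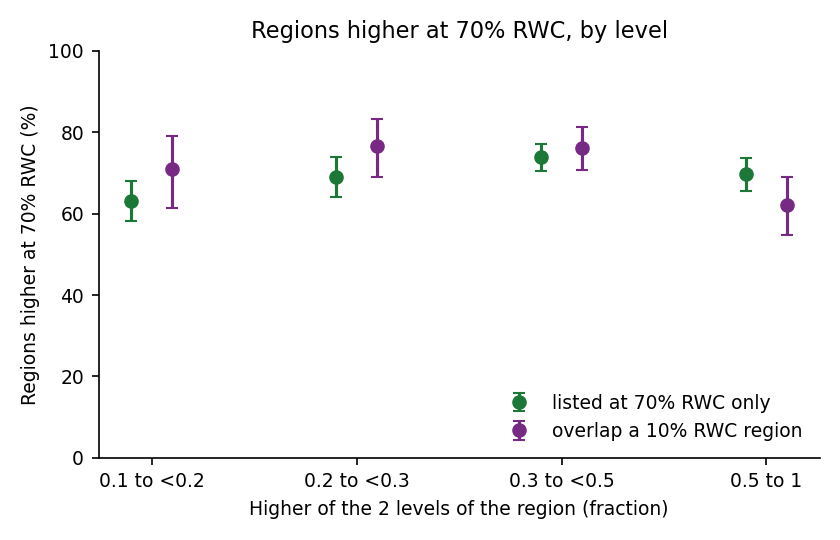
Share of regions higher at 70% RWC (percent) by the higher of the region's levels (fraction), for regions listed at 70% RWC only (green) and regions overlapping a 10% RWC region (purple); bars are exact 95% binomial intervals for counting only. The regions listed at 70% RWC only run from 63.2% to 73.9%, and the overlapping regions from 62.1% to 76.7%.

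The regions lay on 1107 scaffolds, of which 769 held a single one. For 1651 regions 1 gene was listed, for 313 regions 2 genes and for 15 regions 3 genes. A region between neighbouring genes is therefore counted for each of them, and which of the genes it bears on is not given. Of the 80 regions downstream of one gene and upstream of another, 61 were higher at 70% RWC, as were 33 of the 50 lying downstream of both neighbours and 17 of the 24 lying upstream of both. Of the 15 regions with 3 genes, 12 were higher. One of them was assigned to a glutathione S-transferase, a glutathione peroxidase and a DNA topoisomerase II (Bhs700_081, Bhs700_082 and Bhs700_083, 0.06 and 0.16). Another lay 1308 bp upstream of a MAP kinase kinase kinase gene (Bhs158_034, 0.27 and 0.54). The 3 lower ones included a region upstream of a heat shock 70kDa protein (Bhs1784_020, 0.24 and 0.09) and a region within an endophilin gene and upstream of an SLX1 gene (Bhs272_011 and Bhs272_009, 0.41 and 0.15). Neighbouring regions no more than 1 kb apart had the same direction in 13 of 14 pairs, those 1 to 5 kb apart in 40 of 64 pairs (62.5%) and those farther apart in 468 of 794 (58.9%).

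The rule that separates these regions from the overlapping ones is a single shared base. A region within Bhs6102_003 that missed a 10% RWC region by 1 bp had levels of 0.03 and 0.26, and one shared by Bhs451_064 and the histone H4 gene Bhs451_065 that missed by 2 bp had 0.18 and 0.37. Just outside, regions within Bhs106_070 and Bhs107_036 overlapped by 1 bp and had levels of 0.23 and 0.50, and 0.31 and 0.14. Near misses were few. Of the 1979 regions, 96 lay within 500 bp of a 10% RWC region and 624 lay on scaffolds with none. The median gap of regions with a 10% RWC region on the scaffold was 14579 bp. On the other side of the rule, some overlaps were partial. When a reciprocal overlap of 50% was needed to remove a region, the share listed at 70% RWC only was 78.6% in place of 73.6%.

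Genes with a KEGG description had more regions higher at 70% RWC than genes without any annotation. Of 1136 described genes 819 (72.1%) were higher, of 458 with GO terms only 331 (72.3%), and of 728 with neither 479 (65.8%). Described and unannotated genes differed by 6.30 points (2.0 to 10.6), and the same difference among genes of overlapping regions was 5.43 points (-1.49 to 12.5). All 19 functional lists drawn from the descriptions had more genes higher than lower at 70% RWC. Together they held 568 genes, of which 415 (73.1%) were higher, with a median difference of 0.17, the same as over all 3177 genes of the table. The interval of every single list included the 70.6% of all genes. Genes of overlapping regions had a larger share higher in some lists and a smaller share in others. Their counts were 10 of 11 for antioxidant, 4 of 4 for sugar, 6 of 6 for vesicle and 9 of 11 for translation genes. Against these stood 4 of 9 for cell wall, 17 of 32 for receptor and 7 of 14 for other hormone genes.

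**Figure D4:**
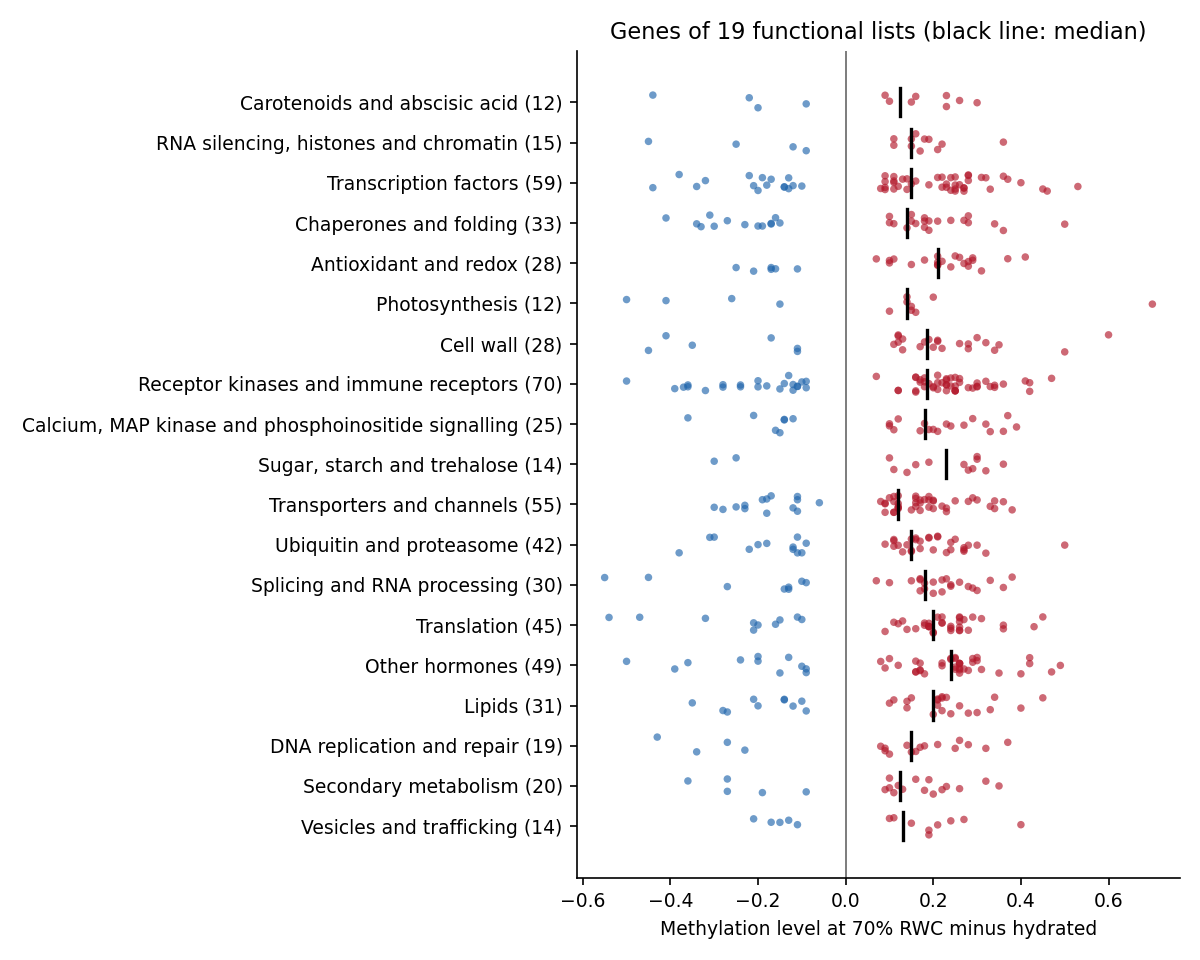
Difference of methylation levels (70% RWC minus hydrated) for the genes of 19 functional lists, with the number of genes in brackets; each point is 1 gene (red higher, blue lower at 70% RWC), vertical jitter has no meaning and black lines are medians. All 19 medians lie above 0, from 0.12 for transporters and channels to 0.24 for hormones other than abscisic acid.

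Hormone genes other than those of abscisic acid had 38 of 49 genes higher at 70% RWC (77.6%, interval 63.4% to 88.2%) and a median difference of 0.24. In the KEGG pathway of plant hormone signal transduction, 34 of 41 genes were higher (82.9%, 67.9% to 92.8%). This interval included the 70.6% higher over all genes of the 70% RWC table. Among genes of overlapping regions in the pathway, 6 of 12 were higher. The largest difference upward in the pathway was in its gibberellin branch, where the receptor GID1 binds the hormone and then directs the growth-repressing DELLA proteins to degradation. A region upstream of the GID1 gene Bhs1259_044 had levels of 0.08 and 0.57 over 348 bp, and the other GID1 genes had 0.09 and 0.25 (Bhs685_045, upstream) and 0.23 and 0.51 (Bhs828_006, downstream). All 6 DELLA genes were higher at 70% RWC, with an interval (54.1% to 100%) that also included the 70.6% of all genes. Upstream regions belonged to Bhs158_013 (0.36 and 0.78), Bhs149_017 (0.17 and 0.43), Bhs4907_003 (0.26 and 0.52) and Bhs862_033 (0.12 and 0.36). Body regions belonged to Bhs10396_001 (0.17 and 0.34) and Bhs51_056 (0.09 and 0.25).

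Genes of auxin transport and response were named after their values were seen, as examples from the hormone list. The influx carrier AUX1, which brings auxin into cells, had levels of 0.09 and 0.49 upstream (Bhs316_007). Auxin response factors, which bind auxin-responsive promoters, had 0.07 and 0.38 (Bhs189_025, upstream), 0.29 and 0.58 (Bhs3751_004) and 0.02 and 0.11 (Bhs334_090, downstream). Their IAA repressors were listed at 0.10 and 0.40 upstream of Bhs32_130 and 0.02 and 0.10 within Bhs444_003, whereas upstream of Bhs468_025 the levels were 0.11 and 0.02. A jasmonate repressor JAZ (Bhs5216_002, upstream) had 0.13 and 0.42, and a cytokinin receptor kinase (Bhs48_022, upstream) 0.18 and 0.44.

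Genes with brassinosteroid descriptions were mixed, and such a description names only the best match. Genes described as BRI1, the receptor kinase of the hormone, were higher in 10 of 13 cases, with levels of 0.09 and 0.56 within Bhs198_034 and 0.19 and 0.61 downstream of Bhs1140_051. The 3 lower ones were Bhs20_016, already given, Bhs334_095 (upstream, 0.76 and 0.37) and Bhs3283_009 (upstream, 0.40 and 0.16). Of 8 genes described as its co-receptor BAK1, 4 were higher. For the ethylene signalling kinase CTR1, 1 gene was higher (Bhs6_113, 0.18 and 0.37) and 1 lower (Bhs5330_003, 0.45 and 0.16).

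**Figure D5:**
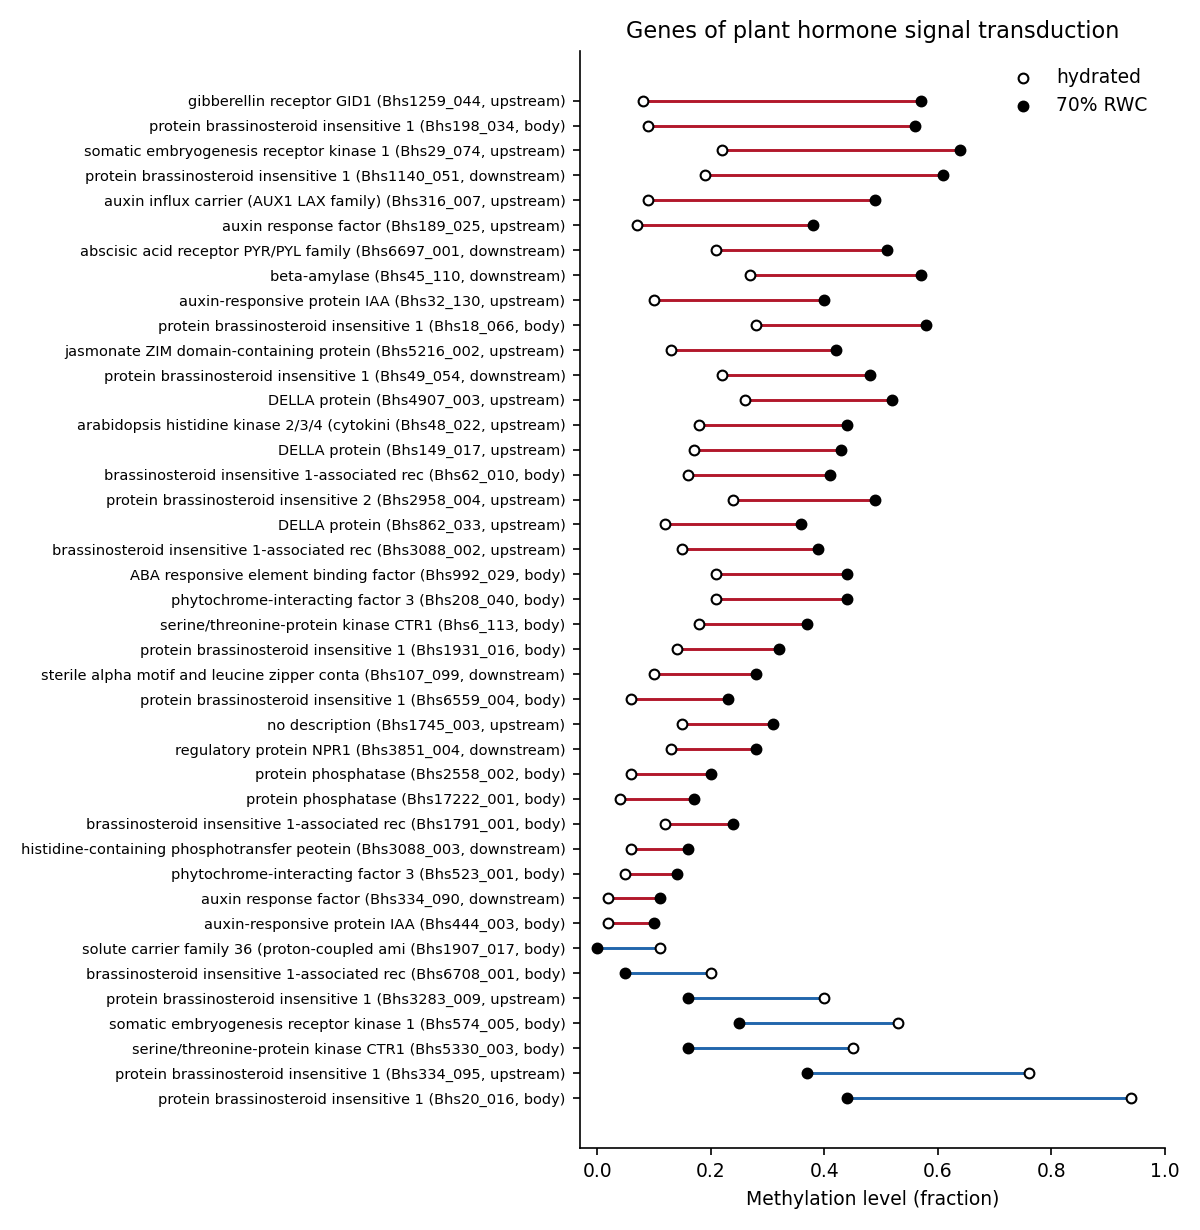
Methylation level (fraction) of the region of each of the 41 genes of the plant hormone signal transduction pathway, hydrated (open circle) and at 70% RWC (filled circle); lines are red where the level is higher at 70% RWC and blue where lower. The 34 red genes are led by GID1 (0.08 and 0.57) and the 7 blue ones by BRI1 (Bhs20_016, 0.94 and 0.44).

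Carotenoid and abscisic acid genes, a list of 12, had 8 higher and 4 lower (66.7%, interval 34.9% to 90.1%), with a median difference of 0.125. Abscisic acid is the main hormone of water deficit and is made from carotenoids. Early carotenoid enzymes described as zeta-carotene desaturase were higher in 4 of 5 genes, from 0.02 and 0.11 downstream of Bhs45_135 to 0.13 and 0.29 within Bhs887_023, and lower upstream of Bhs21_009 (0.41 and 0.19). Both genes of zeaxanthin epoxidase, which makes the precursor violaxanthin, were lower, at 0.26 and 0.06 (Bhs464_019, upstream) and 0.11 and 0.02 (Bhs7_038). The next step described, xanthoxin dehydrogenase, was lower upstream of Bhs1073_015 (0.83 and 0.39) and higher downstream of Bhs40_119 (0.23 and 0.49). The enzyme that breaks the hormone down, abscisic acid 8'-hydroxylase, had 0.03 and 0.26 upstream of Bhs2524_024. A receptor of the PYR/PYL family had 0.21 and 0.51 (Bhs6697_001, downstream), and a factor that binds abscisic acid response elements had 0.21 and 0.44 (Bhs992_029). Of the 4 upstream regions of the list 3 were lower, and of the 8 other regions 7 were higher. Over all genes listed for 70% RWC, the share higher was 71.3% upstream, 71.0% in bodies and 69.3% downstream. Genes of overlapping regions in this list had 1 body region higher, 2 body regions lower, 1 downstream region higher and none upstream. A split by gene part is not given for every list, and with 4 upstream regions it was not tested.

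Transcription factors, 59 genes, had 43 higher and 16 lower (72.9%, 59.7% to 83.6%). The largest upward after CONSTANS lay upstream of a nuclear factor Y beta subunit (Bhs263_046, 0.32 and 0.78). Downward, phytochrome-interacting factor 3, which represses light responses, had 0.58 and 0.14 upstream of Bhs263_021, and an ethylene-responsive EREBP-like factor 0.40 and 0.02 upstream of Bhs6670_003. Counts by family were small, and the interval of the RAV-like, MYB and MADS-box families each included the 70.6% of all genes. All 4 RAV-like factors, all 3 WRKY 29 genes and 5 of 6 MYB genes were higher, while of 6 plant MADS-box genes, many of which control flowers, only 2 were (Bhs784_014, upstream, 0.26 and 0.63, and Bhs801_019, 0.15 and 0.31). Among the 12 genes of the KEGG pathway of circadian rhythm of plants, 8 were higher (66.7%, 34.9% to 90.1%), an interval that included the 70.6%. The pathway also holds CONSTANS and phytochrome-interacting factor 3. None of the overlapping regions, which are 26.4% of all regions, belonged to that pathway. With so few genes this absence was not tested. All 3 genes of the morning clock factor LHY were higher (Bhs45_118, downstream, 0.20 and 0.43; Bhs862_028, downstream, 0.23 and 0.48; Bhs3794_003, 0.05 and 0.17), as was the blue light receptor ZTL (Bhs6_058, 0.14 and 0.32). The evening regulator GIGANTEA was lower (Bhs3094_001, 0.23 and 0.08).

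RNA silencing and chromatin genes had 11 of 15 higher (73.3%, 44.9% to 92.2%). Against the Dicer gene given above, a second Dicer gene was higher in its body (Bhs1722_006, 0.11 and 0.28). All 5 genes described as bromodomain-containing factor 1, a reader of acetylated histones in yeast, were higher, the largest upstream of Bhs40_064 (0.19 and 0.41). A bromodomain-containing protein 3 had 0.18 and 0.54 (Bhs17306_001). Lower were a bromodomain and WD repeat protein (Bhs1490_001, 0.37 and 0.12), a histone deacetylase (Bhs5_062, downstream, 0.19 and 0.07) and a SWI/SNF remodelling factor (Bhs2157_001, upstream, 0.17 and 0.08).

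Chaperones, which fold or protect other proteins, had 20 of 33 higher, the lowest share of the 19 lists (60.6%, 42.1% to 77.1%). All 4 genes described as DnaJ homolog subfamily B member 4, a partner of heat shock 70kDa proteins, were lower at 70% RWC. Their levels were 0.65 and 0.32 (Bhs1617_010), 0.52 and 0.21 (Bhs2145_007, upstream), 0.50 and 0.20 (Bhs1344_004, upstream) and 0.46 and 0.19 (Bhs992_022, upstream). Of 5 genes described as the bacterial-type chaperone DnaJ, 4 were higher. The interval of the share higher was 0% to 60.2% for DnaJ homolog subfamily B member 4 and 28.4% to 99.5% for DnaJ. Only the interval of subfamily B member 4 excluded the 70.6% of all genes. This family of 4 genes was singled out from many repeated descriptions after its values were seen, and it was not tested. Heat shock 70kDa protein 1/8 was divided, with 0.78 and 0.37 within Bhs7881_001 and 0.24 and 0.09 at Bhs1784_020, against 0.16 and 0.52 downstream of Bhs85_075 and 0.03 and 0.14 within Bhs34979_001. The chaperone HtpG of the heat shock 90 family had 0.48 and 0.14 over 983 bp of Bhs497_002 and 0.16 and 0.34 within Bhs685_013. Both small heat shock proteins of the HSP20 family were higher, upstream of Bhs828_007 (0.23 and 0.51) and Bhs666_006 (0.18 and 0.42).

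Antioxidant and redox genes had 22 of 28 higher (78.6%, 59.0% to 91.7%), with a median difference of 0.21 and no region lower by 0.3 or more. Ascorbate oxidases, which use up ascorbate in the cell wall, were higher in 6 of 7 genes, led by a region at the end of Bhs649_087 (0.05 and 0.46). Glutamate-cysteine ligase, the first enzyme of glutathione synthesis, shared 1 region between Bhs211_054 and Bhs211_055 (0.18 and 0.39). Glutathione S-transferases were higher in 4 of 5 genes, among them Bhs2171_005 (downstream, 0.29 and 0.60). Peroxidases were higher in 3 of 5, with 0.31 and 0.68 within Bhs1834_003 and 0.38 and 0.17 within Bhs944_035. Thioredoxin was lower within Bhs710_044 (0.44 and 0.19) and higher within Bhs51_087 (0.20 and 0.46), and superoxide dismutase was lower upstream of Bhs109_028 (0.25 and 0.09).

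Photosynthesis genes numbered 12, with 8 higher and 4 lower (66.7%, 34.9% to 90.1%). The antenna proteins were all higher, at 0.21 and 0.91 (Bhs6817_001), 0.14 and 0.28 (Bhs29_032, downstream), 0.13 and 0.27 (Bhs4601_002, downstream) and 0.12 and 0.27 (Bhs1817_007, upstream). Ferredoxin and the reductase that takes its electrons to NADP were both lower, at 0.50 and 0 (Bhs222_026) and 0.63 and 0.22 (Bhs18_093). Chlorophyll synthesis was divided between protochlorophyllide reductase (Bhs1817_013, 0.05 and 0.25) and magnesium chelatase (Bhs19_078, 0.11 and 0.26), which were higher, and chlorophyllide a oxygenase (Bhs51_011, 0.21 and 0.06), which was lower. Magnesium-protoporphyrin O-methyltransferase was higher (Bhs40_091, downstream, 0.05 and 0.16). Geranylgeranyl reductase, given above and not part of this list, was lower by more than any of these (Bhs4002_002, upstream, 0.85 and 0.34). Of 110 genes with the GO term plastid 83 were higher (75.5%), and of 25 with chloroplast thylakoid 19.

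Sugar, starch and trehalose genes had 12 of 14 higher (85.7%, 57.2% to 98.2%), with a median difference of 0.23. Fructokinase had 0.36 and 0.72 (Bhs5639_002) and 0.28 and 0.57 (Bhs14255_001), and hexokinase 0.24 and 0.54 (Bhs257_036). Sucrose synthase (Bhs4995_010, 0.03 and 0.17), trehalose-phosphate synthase (Bhs146_026, downstream, 0.06 and 0.16) and trehalose-phosphatase (Bhs2576_005, 0.09 and 0.20), which build or split soluble sugars that accumulate in drying plants, had smaller differences. Beta-amylase, which breaks down starch, was higher upstream of Bhs6088_001 (0.19 and 0.51) and lower upstream of Bhs13122_002 (0.39 and 0.14). A beta-glucosidase was lower upstream of Bhs672_011 (0.52 and 0.22). The KEGG pathway of starch and sucrose metabolism, which shares members with this list, had 14 of 17 genes higher (82.4%, 56.6% to 96.2%). That interval included the 70.6% of all genes.

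Cell wall genes had 22 of 28 higher (78.6%, 59.0% to 91.7%), beside 4 of 9 genes of overlapping regions. All 5 pectinesterases, which remove methyl groups from pectin, were higher, from 0 and 0.12 within Bhs10850_002 to 0 and 0.50 downstream of Bhs8446_001. All 3 pectate lyases and all 3 xyloglucan:xyloglucosyl transferases were higher, among the latter Bhs2524_006 and its neighbour Bhs2524_007 (downstream, 0.13 and 0.43) on the same scaffold. The lower genes were a polygalacturonase (Bhs6046_007, upstream, 0.78 and 0.33), cellulose synthases Bhs710_021 and Bhs194_024 (both downstream, 0.78 and 0.37, and 0.32 and 0.15), and xylosyl or xylan transferases (Bhs168_051, Bhs251_034 and Bhs685_075). Of 4 cellulose synthase A genes 2 were higher, both in the gene body.

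Receptor kinases and immune receptors, the largest list with 70 genes, had 47 higher and 23 lower (67.1%, 54.9% to 77.9%), and 17 of 32 genes of overlapping regions were higher. This list holds the BRI1 and BAK1 genes given above. Genes described as PBS1, a kinase guarded by an immune receptor in Arabidopsis, were higher in 8 of 9 cases, up to 0.35 and 0.71 within Bhs16709_001. Those described as the interleukin receptor-associated kinase IRAK4, an animal gene, were higher in 6 of 7. The intracellular immune receptor RPM1 was higher in 6 of 9 and the flagellin receptor FLS2 in 4 of 7. A somatic embryogenesis receptor kinase had 0.22 and 0.64 upstream of Bhs29_074, and another 0.53 and 0.25 within Bhs574_005. In the KEGG pathway of plant-pathogen interaction 20 of 33 genes were higher (60.6%, 42.1% to 77.1%), an interval that included the 70.6% of all genes.

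Calcium, MAP kinase and phosphoinositide signalling had 18 of 25 higher (72.0%, 50.6% to 87.9%). The calcium sensors were all higher and by large steps, at 0.35 and 0.74 (Bhs6569_006, CML, downstream), 0.33 and 0.66 (Bhs215_018, CML, upstream) and 0.35 and 0.71 (Bhs85_005, calmodulin, upstream). Both calcium-dependent protein kinases were higher (Bhs4896_002, 0.18 and 0.41, and Bhs2512_002, downstream, 0.15 and 0.32). Phosphatidylinositol-bisphosphatases were divided, with 0.72 and 0.36 within Bhs915_016 and 0.22 and 0.51 upstream of Bhs837_002. A phosphatidylinositol phosphate kinase had 0.23 and 0.60 (Bhs51_031, downstream), and a calmodulin-dependent kinase kinase 0.39 and 0.18 (Bhs2932_007).

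Transporters and channels had 41 of 55 higher (74.5%, 61.0% to 85.3%) with the smallest median difference of the lists, 0.12. By gene part, all 6 upstream regions and 13 of 14 downstream regions were higher. Of the 14 lower regions 13 were in gene bodies, where 22 were higher. The share higher over all genes listed for 70% RWC was 71.3% upstream, 71.0% in bodies and 69.3% downstream. Transporter genes of overlapping regions had 5 higher and 2 lower upstream, 15 and 4 in bodies, and 8 and 3 downstream. A split by gene part is not given for every list, and this one was not tested. All 7 genes described as ABC transporter subfamily B member 1, which in plants includes auxin exporters, were higher, from 0 and 0.11 within Bhs730_024 to 0.03 and 0.41 within Bhs5534_006. A plasma membrane aquaporin, a water channel, had 0.02 and 0.17 upstream of Bhs2171_016. A proton-coupled amino acid transporter had 0.18 and 0.54 upstream of Bhs887_006. Among the 55 genes, the only lower region outside a gene body was downstream of a calcium/proton antiporter (Bhs267_015, 0.51 and 0.21). The largest lower body region belonged to a mitochondrial phosphate carrier (Bhs710_022, 0.51 and 0.23).

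Genes of protein turnover, protein synthesis and RNA processing were mostly higher as well. Ubiquitin and proteasome genes had 30 of 42 higher (71.4%, 55.4% to 84.3%), including all 8 downstream regions and all 5 genes of 1 RING-type ligase. Of their upstream regions 4 were higher and 4 lower. The share higher over all genes listed for 70% RWC was 69.3% downstream and 71.3% upstream. Ubiquitin and proteasome genes of overlapping regions had 4 higher and 1 lower downstream, and 0 higher and 2 lower upstream. After synoviolin, the largest upward was a proteasome subunit (Bhs451_050, upstream, 0.17 and 0.49), and downward an F-box protein (Bhs5185_006, upstream, 0.77 and 0.39) and a proteasome subunit (Bhs95_031, 0.61 and 0.30). Translation genes had 35 of 45 higher (77.8%, 62.9% to 88.8%), led by ribosomal protein L30e (Bhs649_083, upstream, 0.41 and 0.86) and a putative translation factor (Bhs8860_001, downstream, 0.24 and 0.67). Splicing and RNA processing genes had 22 of 30 higher (73.3%, 54.1% to 87.7%), led by a minor spliceosome U11/U12 protein (Bhs1608_007, 0.28 and 0.66) and a 5'-3' exoribonuclease (Bhs336_023, upstream, 0.02 and 0.38).

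Lipid genes had 21 of 31 higher (67.7%, 48.6% to 83.3%). A long-chain acyl-CoA synthetase, which activates fatty acids, had 0.41 and 0.86 (Bhs208_032), and an acyl-CoA hydrolase 0.05 and 0.45 (Bhs836_007, upstream). Phospholipase D, which makes the signal lipid phosphatidic acid, was lower in both of its genes (Bhs1125_023, downstream, 0.55 and 0.27, and Bhs710_007, 0.11 and 0.02), as was a phospholipase A-2-activating protein (Bhs168_052, upstream, 0.61 and 0.26). Secondary metabolism had 15 of 20 higher (75%, 50.9% to 91.3%), yet hydroxycinnamoyltransferase, which feeds lignin synthesis, was lower in 3 of 4 genes (Bhs518_031, downstream, 0.63 and 0.27; Bhs1728_009, 0.54 and 0.27; Bhs685_023, downstream, 0.52 and 0.25). The largest upward were a salicylic acid glucosyltransferase (Bhs17027_002, downstream, 0.30 and 0.65) and a cytochrome P450 (Bhs2205_006, 0.20 and 0.52).

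DNA replication and repair genes had 15 of 19 higher (78.9%, 54.4% to 93.9%). This list leaves out the 30 genes described as the structure-specific endonuclease subunit SLX1, of which 16 were higher (53.3%). Excision repair proteins ERCC-4 (Bhs3275_004, upstream, 0.36 and 0.73), ERCC-6 (Bhs3027_007, upstream, 0 and 0.15) and ERCC-8 (Bhs2033_005, 0.27 and 0.55) were higher, and ERCC-5 was lower (Bhs837_011, 0.53 and 0.26). The replicative polymerase epsilon had 0.09 and 0.41 (Bhs3086_004, upstream). DNA topoisomerase III was lower within Bhs253_015 (0.77 and 0.34) and higher within Bhs2761_002 (0.01 and 0.15), and an alkB repair homolog was lower downstream of Bhs695_006 (0.67 and 0.33). Vesicle and trafficking genes had 9 of 14 higher (64.3%, 35.1% to 87.2%), led by a SEC61 subunit (Bhs1728_005, downstream, 0.12 and 0.52) and Rab-7A (Bhs1789_012, 0.01 and 0.28). Lower ones included a Golgi SNARE (Bhs334_071, downstream, 0.42 and 0.21) and a Rab gene (Bhs40_045, 0.28 and 0.11).

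Some repeated descriptions outside the lists had counts of their own. The most frequent, the endonuclease subunit SLX1, belonged to 30 genes, of which 16 were higher at 70% RWC, with a median difference of 0.11. The plastid and mitochondrial protease FtsH was higher in 4 of 8 genes. All 4 kinesin 15 genes were higher, with a median difference of 0.26, and 4 of 4 pumilio family genes, with 0.22. By GO text, 25 of 31 genes of the response to osmotic stress were higher (80.6%, 62.5% to 92.5%), with a median difference of 0.24. The term response to stress gave 37 of 46, and the term response to hormone stimulus 32 of 44 (72.7%). Of the GO terms with at least 20 of these genes, transport alone had an interval that excluded 70.6%, with 22 of 23 genes higher (95.7%, 78.1% to 99.9%) and a median difference of 0.23, beside 16 of 20 genes of overlapping regions. With 49 terms examined and no test, it was singled out after its values were seen. Each of these counts is a description, to be read against the 70.6% of all genes.

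Of the 2322 genes, 415 (17.9%) also appear in the 10% RWC table through a different region, and 294 of these (70.8%) were higher at 70% RWC, beside 70.0% of the genes absent from that table. Both tables share the hydrated library, so their values are given side by side only. In Bhs963_016 a body region had levels of 0 hydrated and 0.70 at 70% RWC (scaffold963, 552221 to 552474), and a second body region starting at 552577 had 1 hydrated and 0.36 at 10% RWC. In Bhs1560_003 the body levels were 0.40 and 0.95 at 70% RWC, and 0.39 and 0.04 in another body region at 10% RWC. Upstream of Bhs807_003 they were 0.21 and 0.57, and 0.78 and 0.20 in a separate upstream region at 10% RWC. For Bhs828_020 the region it shares with DHX16 had 0.75 and 0.20, and a body region 0.31 and 0.65 at 10% RWC. For Bhs422_002 a downstream region had 0.05 and 0.55, and an upstream one 0.68 and 0.30 at 10% RWC. These 5 genes have the largest summed differences among genes whose regions point in opposite directions, and each pair of values comes from different stretches of DNA.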

How the data were processed

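Per the labels' protocols, sonicated leaf DNA received methylated adaptors and was bisulfite treated and amplified, with 1 library for each of 3 conditions. Per the file headers, the deposited methylation level is a mean per region, a fraction given to 2 decimals, for the hydrated and the dehydrated library, and the deposited region length is in bp. The sources used here do not give the aligner, region caller, sequence contexts, conversion rate, coverage or build.

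Blank lines (57411 at 70% RWC and 54694 at 10% RWC) were left out. Regions were made unique by scaffold, start and end, and those sharing 1 bp or more with a 10% RWC region were removed. The overlap step was checked on the deposited regions of both dehydration levels against bedtools 2.31.1. The stated direction agreed in sign with the difference in every row. Shares carry exact Clopper-Pearson intervals and differences of shares Newcombe intervals, at 95%. No test was made. Distances are bases between region and gene.

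The regions and lists were chosen with earlier results of these data known, and list keywords were adjusted after reading the matched descriptions. Lists use the first-ranked KEGG description, and a gene may belong to several. Named genes are the 12 largest differences per direction with a description, the 5 largest of any kind, up to 2 per list and direction, regions of 1000 bp or more, regions with 3 genes, and the 5 largest opposite pairs. Other genes were named after their values were seen, to fill out a family or pathway. Some genes that meet the rule, without a description or sharing a region with a named gene, are left out for brevity. No gene had more than 1 region. Tools were scipy 1.17.1, numpy 2.4.6, pandas 2.3.3 and matplotlib 3.10.9 under Python 3.11.15.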

Additional observations from a re-analysis of the deposited data

How the results depend on the processing

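Over 26 results and 98 alternatives, no median turned sign and no share higher fell to the other side of an even split, 85 values stayed within the interval of the value reported and 13 did not. The share of 70% RWC regions counted as listed there only, 73.6%, became 78.6% when a reciprocal overlap of 50% was needed to remove a region and 70% when any 10% RWC region within 500 bp removed it. Under the reciprocal overlap the share higher minus that of overlapping regions was -4.40 points, with an interval (-8.36 to -0.199) that no longer included 0. With a minimum difference of 0.2, the medians were 0.28 and -0.30 and the share in gene bodies 38.9%. With a minimum of 0.3, the share higher was 67.3%, the medians 0.36 and -0.37, the share in gene bodies 35.3%, and bodies minus flanks 6.90 points in place of -1.15. The share higher minus that of overlapping regions was then 0.585 points in place of -1.85, and 0 lay inside all 4 intervals of these differences. These moves follow in part from the setting itself, which keeps only larger differences. Regions listed for 1 gene gave a body share of 52.2%. As log2 ratios with 0.01 added, the medians were 1.24 and -1.30, another scale. All 57 alternatives of the 19 lists (GO terms added, any ranked description, each region once) stayed within the interval of their list. The last 2 of these were chosen after seeing the data. No paired analysis was possible because each condition has 1 library, and for the same reason no replicate could be left out. Without coverage, small differences and levels of 0 or 1 cannot be weighed by depth.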
